A study of Mus musculus with 82 samples.

Results

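Sites where an Adnp peak and an HP1γ peak overlap by at least 1 bp were selected on peak positions from 2 lists of ChIP-seq peaks of mouse embryonic stem cells (build mm10). On chromosomes 1 to 19, 293 of 14903 Adnp peaks (1.97%) and 303 of 1994 HP1γ peaks (15.2%) met this rule. They formed 306 overlapping pairs and, with overlapping peaks joined, 290 shared regions. The whole lists hold 15026 Adnp and 2047 HP1γ peaks. Members were chosen by these measured positions, so the overlap and the distances within a pair are given as a description, without a test.

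All cells had the labelled genetic background hybrid 129-C57BL/6, were kept in 2i medium with LIF and had no listed treatment. The HP1γ list is tied by the series description to 3 replicates of cells labelled Cbx3 FlagAvi, Adnp KO and to 3 of cells labelled Cbx3 FlagAvi. The Adnp list is tied to 3 replicates of cells labelled Adnp FlagAvi. FlagAvi marks a tagged protein, and the labels' protocols give capture on streptavidin beads from chromatin sonicated to 300 bp on average. The HP1γ list is titled as peaks without the Adnp motif, which could not be checked here without a genome. By that title, HP1γ peaks with the motif would be left out. An Adnp peak that overlaps no listed HP1γ peak is therefore not shown to lack HP1γ. Peak names of the HP1γ list point to the Adnp knockout. The genotype in which HP1γ was seen at a shared site is thus not known, and joint binding in 1 cell is not shown. Each list is pooled over replicates. No value therefore has an error between replicates, sequencing depth is unknown, and the 95% intervals cover counting error only.

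Adnp is a zinc finger and homeodomain protein that, with the chromatin remodeller Chd4 and HP1 proteins, forms the complex called ChAHP. HP1γ, encoded by Cbx3, reads methylated H3K9 through its chromodomain and binds partner proteins through its chromoshadow domain. HP1γ is also known as a member of the Polycomb complex PRC1.6, which in embryonic stem cells silences germ cell genes and whose subunits E2F6 and MGA recognise E2F sites and E-boxes.

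The sequences that matter most here are promoters that a shared region overlaps, wholly or in part. Of 16 protein-coding genes with such a promoter, 6 have known roles in germ cells: Mael, Sycp2, Boll, Spata22, Tdrd12 and Bhmg1. Mael and Sycp2 belonged to a list of germ cell genes, and the other 4 were recognised after the values were seen. Such genes were not counted among other promoters, so 6 of 16 is not shown to be a high share. Mkrn3, an imprinted gene, is added as a promoter of another kind. Each window spans 250 bases before to 50 after an annotated transcription start, is read in the direction of the gene and comes from RefSeq (GRCm38.p6). Capitals mark the E-box CACGTG, which reads the same on both strands. They also mark the core of the E2F site, GCGGGA, or its reverse complement where the word lies on the other strand.
Mael: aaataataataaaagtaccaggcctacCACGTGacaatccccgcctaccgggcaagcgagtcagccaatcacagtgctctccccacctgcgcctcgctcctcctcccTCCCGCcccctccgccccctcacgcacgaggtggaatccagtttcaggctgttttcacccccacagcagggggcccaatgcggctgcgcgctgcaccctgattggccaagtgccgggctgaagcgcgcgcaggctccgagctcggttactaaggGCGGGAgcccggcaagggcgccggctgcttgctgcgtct
Sycp2: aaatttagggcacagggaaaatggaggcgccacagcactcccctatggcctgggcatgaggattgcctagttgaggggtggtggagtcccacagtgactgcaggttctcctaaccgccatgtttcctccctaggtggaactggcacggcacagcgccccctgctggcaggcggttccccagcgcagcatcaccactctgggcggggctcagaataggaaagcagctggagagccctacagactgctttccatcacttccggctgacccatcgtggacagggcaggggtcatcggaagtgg
Boll: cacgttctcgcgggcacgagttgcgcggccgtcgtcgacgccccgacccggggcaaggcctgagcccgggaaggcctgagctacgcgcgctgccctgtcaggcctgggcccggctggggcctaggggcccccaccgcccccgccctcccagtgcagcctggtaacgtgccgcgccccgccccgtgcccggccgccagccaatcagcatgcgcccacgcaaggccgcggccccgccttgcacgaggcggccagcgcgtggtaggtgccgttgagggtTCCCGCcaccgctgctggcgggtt
Spata22: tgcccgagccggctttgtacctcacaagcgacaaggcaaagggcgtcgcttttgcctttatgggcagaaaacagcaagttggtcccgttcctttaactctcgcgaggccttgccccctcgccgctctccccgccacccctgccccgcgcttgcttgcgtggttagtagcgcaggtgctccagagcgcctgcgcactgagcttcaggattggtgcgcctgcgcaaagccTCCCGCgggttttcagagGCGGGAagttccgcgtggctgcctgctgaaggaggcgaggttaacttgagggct
Tdrd12: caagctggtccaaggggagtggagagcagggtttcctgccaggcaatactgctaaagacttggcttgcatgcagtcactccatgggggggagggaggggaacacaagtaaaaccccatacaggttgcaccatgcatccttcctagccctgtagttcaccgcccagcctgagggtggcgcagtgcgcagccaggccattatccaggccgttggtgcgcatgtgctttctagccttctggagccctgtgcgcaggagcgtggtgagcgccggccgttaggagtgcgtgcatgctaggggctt
Bhmg1: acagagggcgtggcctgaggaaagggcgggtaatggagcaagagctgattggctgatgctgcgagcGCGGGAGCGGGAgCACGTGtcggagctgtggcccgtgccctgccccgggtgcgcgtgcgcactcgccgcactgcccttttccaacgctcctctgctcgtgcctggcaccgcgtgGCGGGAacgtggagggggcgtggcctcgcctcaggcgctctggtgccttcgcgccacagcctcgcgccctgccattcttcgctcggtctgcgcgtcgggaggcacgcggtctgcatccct
Mkrn3: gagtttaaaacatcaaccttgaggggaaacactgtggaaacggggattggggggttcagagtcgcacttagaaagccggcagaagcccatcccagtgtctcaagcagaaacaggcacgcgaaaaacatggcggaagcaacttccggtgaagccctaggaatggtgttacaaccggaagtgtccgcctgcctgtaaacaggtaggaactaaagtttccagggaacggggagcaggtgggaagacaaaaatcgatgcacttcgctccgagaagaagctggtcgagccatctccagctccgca

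The Mael window is chr1:166238695-166238994, minus strand, with 1 E-box and 2 copies of GCGGGA. The Mael E-box and the first of these copies lie upstream of both peaks of its shared region. The Bhmg1 window (chr7:19118295-19118594, minus strand) holds 1 E-box next to 2 of its 3 copies of GCGGGA. Spata22 (chr11:73329491-73329790, plus strand) has 2 copies of GCGGGA, and Boll (chr1:55362679-55362978, minus strand, an internal start) has 1. The copy in the Boll window lies downstream of both peaks of its shared region. The windows of Sycp2 (chr2:178407609-178407908), Tdrd12 (chr7:35537666-35537965) and Mkrn3 (chr7:62420104-62420403), all on the minus strand, hold neither word. Mkrn3 does not stand for the other promoters in this. A window with either word was found for 4 of the 6 genes with germ cell roles and for 5 of the 10 others. CACGTG was found for 3 of the 6 and for 0 of the 10. The grouping was completed after the values were seen, so no difference between the groups is read from these counts.

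The overlap usually took up a large part of both peaks. In the 306 pairs the overlap had a median of 260 bp (quartiles 200 and 361 bp) and ran to 1017 bp, and 290 pairs (94.8%) shared 100 bp or more. At the median it made up 57.0% of the Adnp peak and 78.4% of the HP1γ peak. In 91 pairs the HP1γ peak lay wholly inside the Adnp peak, in 60 the Adnp peak lay inside the HP1γ peak, and in 155 neither contained the other.

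Centres lay close together without a preferred side. The median distance between the centres was 107 bp (quartiles 50.3 and 169 bp), with 148 pairs (48.4%) within 100 bp and 246 (80.4%) within 200 bp. The HP1γ centre lay to the right of the Adnp centre, in the direction of rising coordinates, in 152 pairs and to the left in 154. Since the rule admits only overlapping peaks, small distances are partly fixed by it.

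**Figure D1:**
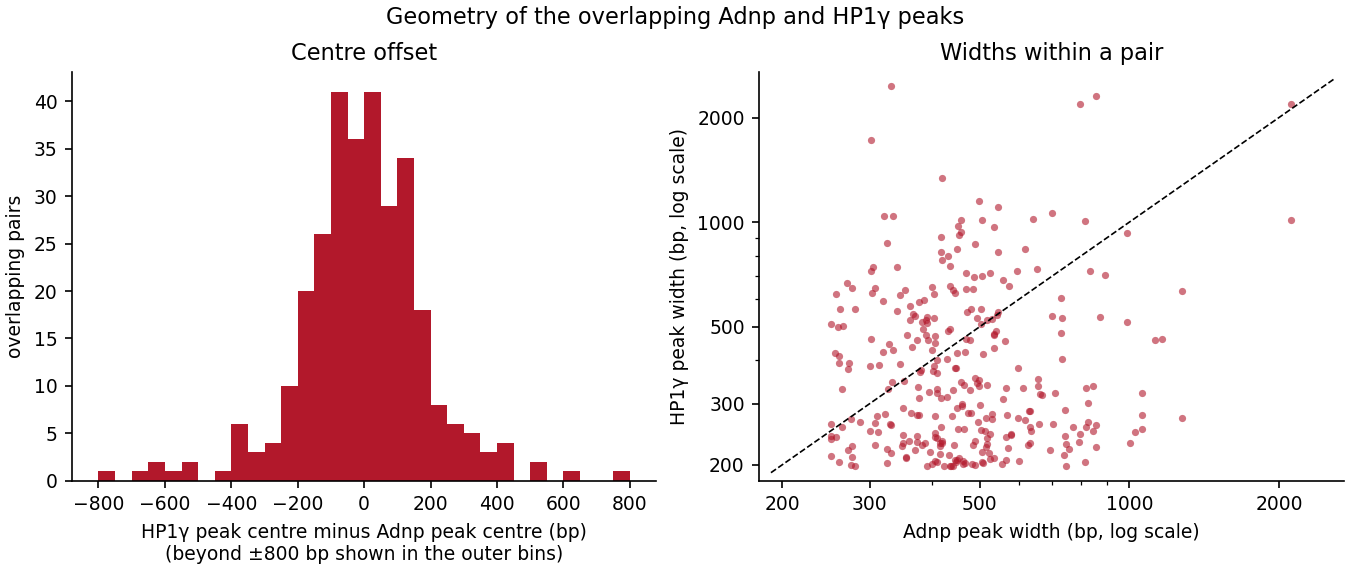
Left, number of pairs by distance of the HP1γ centre from the Adnp centre in bp; right, width of the HP1γ peak against width of the Adnp peak in bp on log axes, 1 point per pair, with the line of equal widths dashed. The offsets gather around 0 with a median distance of 107 bp, and the widths of the peaks of a pair show no common trend.

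The pair with the longest overlap lay within Il3ra, the gene of an interleukin receptor chain on chromosome 14. There an Adnp peak at 14350046 to 14352162 held an HP1γ peak at 14350796 to 14351812, with 1017 bp in common. Next came a pair inside Trim24, a gene of a nuclear receptor cofactor on chromosome 6, with 855 bp in common, and a pair over the start of Atf7ip on chromosome 6 with 705 bp. Atf7ip encodes a partner of the H3K9 methyltransferase Setdb1. At the other extreme, a pair on chromosome 5 shared 6 bp, and the next shortest overlaps were 42 and 43 bp on chromosomes 12 and 7. Just outside the rule, the nearest HP1γ peaks missed an Adnp peak by 1, 3 and 3 bp. In all, 15 unshared HP1γ peaks lay within 100 bp of an Adnp peak and 84 within 1 kb.

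Shared regions were mostly simple pairs. Of the 290 regions, 277 held 1 peak of each list, 11 held 3 peaks, 1 held 4 and 1 held 5. The region with 5 peaks spanned 14347629 to 14352162 in Il3ra and held 2 Adnp and 3 HP1γ peaks. The region with 4 lay on chromosome 8 (125697383 to 125698654), 1519 bp from an end of the lncRNA gene Gm39283, and held 2 of each. Regions of 3 peaks included those inside Smyd3, a methyltransferase gene, and inside Mfsd4b5, both with 1 Adnp and 2 HP1γ peaks. Another such region lay near Ppia, the gene of cyclophilin A.

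Shared Adnp peaks were wider than unshared ones. They measured 447 bp at the median (quartiles 370 and 541 bp), against 395 bp (328 and 480 bp) for the 14610 unshared Adnp peaks. For shared HP1γ peaks the median was 331 bp (quartiles 242 and 530 bp), against 302 bp (232 and 434 bp) for the 1691 unshared HP1γ peaks. Wider peaks have more room to overlap, so no test was made. Of Adnp peaks of 600 bp or more, 3.56% were shared, against 1.26% of those under 300 bp. Of HP1γ peaks of 600 bp or more, 25.1% were shared, against 13.9% of those under 250 bp. Within the 306 pairs the widths did not run together (Spearman's rho 0.01, a description over pairs).

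The authors' score of the Adnp peaks, whose kind is not stated, was spread more widely among shared peaks. Its median was 21.0 (quartiles 12.3 and 39.3, range 3.99 to 529) in shared Adnp peaks and 21.2 (13.9 and 33.6, range 3.66 to 565) in unshared ones. The tenth part with the highest scores began at 81.3 in shared and at 54.6 in unshared Adnp peaks. Of the 644 Adnp peaks scoring 80 or more, 32 were shared (4.97%, 95% Wilson interval 3.54% to 6.93%), against 1.58% (1.27% to 1.95%) of those from 20 to 40 and 2.46% (1.78% to 3.38%) of those under 10. Score ran with Adnp width to a similar degree in shared pairs (rho 0.55, n = 306) and in unshared Adnp peaks (rho 0.56, n = 14610), both across peaks of the same pooled libraries. The highest score among shared peaks was 529, on chromosome 14 between genes.

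Inside and between genes, the shares of the shared peaks lay between those of the unshared peaks of either list. Gene ends here take in peaks reaching within 1 kb of either end of any gene; of the other peaks, those overlapping a gene are inside genes and the rest between genes. Fewer shared than unshared Adnp peaks lay inside genes, 122 of 293 (41.6%) against 7416 of 14610 (50.8%), a difference of -9.12 percentage points (95% Newcombe interval -14.7 to -3.35). The whole Adnp list had 50.6% there. More lay between genes, 42.3% against 36.1%, a difference of 6.21 points (0.631 to 11.98), with 36.2% in the whole list. At gene ends the shares were 16.04% for shared and 13.1% for unshared Adnp peaks, a difference of 2.91 points whose interval (-0.887 to 7.58) included 0, with 13.2% in the whole list. It was called with gene ends of 500 bp (3.58 points), with protein-coding genes alone (3.41 points) and with peaks within 10 kb joined (10.6 points). The call between genes was lost with gene ends of 500 bp (5.56 points) and with peaks within 10 kb joined (2.42 points).

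Within the HP1γ list the differences inside and between genes had the opposite sign, and of these the one between genes was called. Shared HP1γ peaks lay between genes in 42.2% of cases and unshared ones in 48.4%, a difference of -6.13 points (95% Newcombe interval -12.1 to -0.0237), with 47.4% in the whole list. Inside genes the shares were 42.2% and 36.8%, a difference of 5.40 points (-0.506 to 11.5), with 37.7% in the whole list. At gene ends they were 15.5% and 14.8%, a difference of 0.727 points (-3.32 to 5.51), with 14.9% in the whole list. The difference between genes was at the edge of its interval and did not pass under 5 of 7 alternatives, and the difference at gene ends passed with ends of 5 kb (8.96 points). Distance to the nearest protein-coding gene had a median of 2385 bp for shared HP1γ peaks, against 7224 bp for unshared ones. For Adnp peaks it was 2468 bp, against 55 bp.

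**Figure D2:**
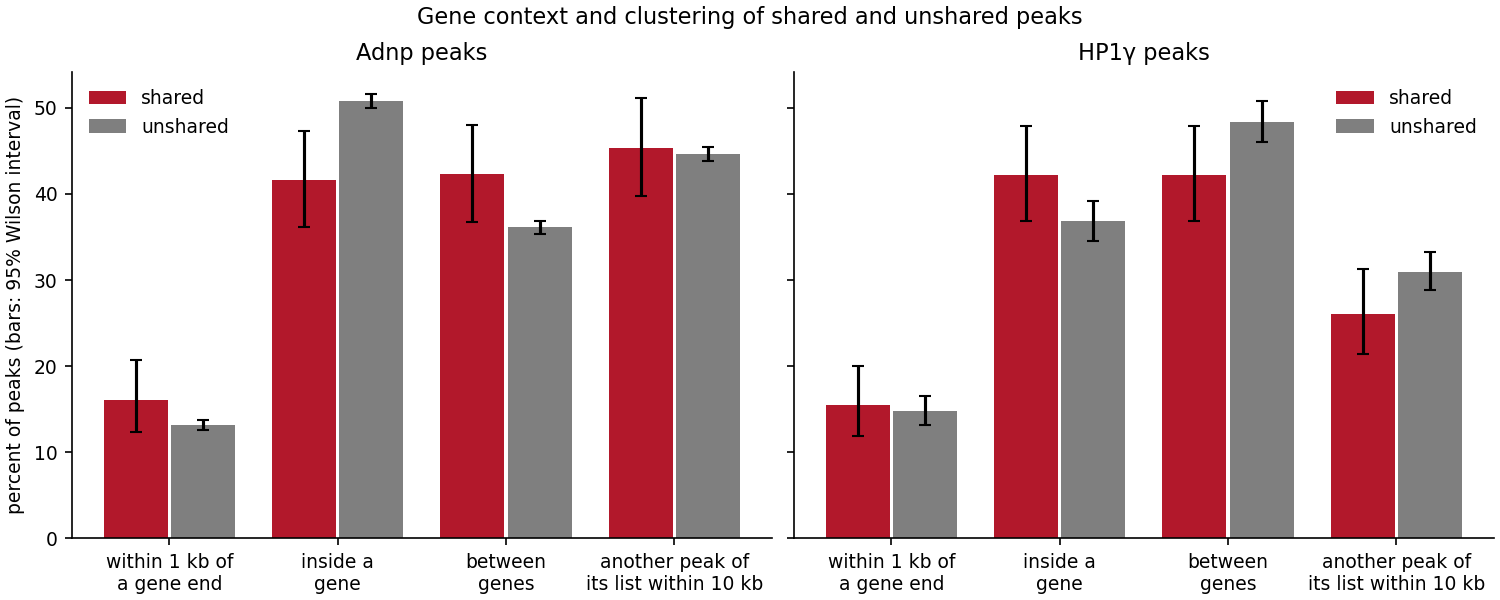
Percent of Adnp peaks (left) and HP1γ peaks (right) at gene ends, inside genes, between genes and with another peak of their own list within 10 kb, for shared (red) and unshared (grey) peaks, with 95% Wilson intervals. Inside genes the shared share is below the unshared one for Adnp, 41.6% against 50.8%, while for HP1γ it is 42.2% against 36.8%.

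No difference in crowding was called in either list. Of shared Adnp peaks, 133 of 293 (45.4%) had another Adnp peak within 10 kb, against 44.6% of unshared ones, a difference of 0.779 points (95% Newcombe interval -4.88 to 6.56), with 44.6% in the whole list. Of shared HP1γ peaks, 79 of 303 (26.1%) had another HP1γ peak within 10 kb, against 31.0% of unshared ones, a difference of -4.91 points (-10.1 to 0.735), with 30.2% in the whole list. The median distance to the next peak of the same list was 12402 bp for shared and 12651 bp for unshared Adnp peaks. It was 125691 bp for shared and 142089 bp for unshared HP1γ peaks.

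Most shared regions had no other shared region within 100 kb, and no comparison of this spacing was made. Of the 290, 17 had another shared region within 10 kb and 52 within 100 kb. Chained at 100 kb, they gave 238 single regions, 23 groups of 2 and 2 groups of 3. The first group of 3 lay at Trim24 on chromosome 6. It held a region inside the gene, 1683 bp from an end (37872494 to 37874795), another inside it (37876261 to 37877080) and one between genes (37830676 to 37831591). The second group of 3 lay at the lncRNA gene Gm39283 on chromosome 8, with regions 45, 1519 and 2852 bp from its end.

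More shared than unshared Adnp peaks overlapped a transcription start. Annotated starts on chromosomes 1 to 17 and 19 were used, and chromosome 18 was not analysed here. Of shared Adnp peaks, 14 of 283 (4.95%, 95% Wilson interval 2.97% to 8.13%) overlapped a start, against 143 of 14254 unshared ones (1.00%, 0.852% to 1.18%), with 1.08% in the whole list. The difference was 3.94 points (95% Newcombe interval 1.96 to 7.13). With Adnp peaks under 600 bp alone it was 3.56 points (1.58 to 7.05), so it was also called among narrower peaks. Within 250 bp of a start lay 6.36% of shared and 2.15% of unshared Adnp peaks, and within 1 kb 9.19% and 5.68%. Within 10 kb the shares were 38.5% and 39.8%.

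Among HP1γ peaks the difference was not called. Of shared HP1γ peaks, 10 of 292 (3.42%) overlapped a start, against 53 of 1640 unshared ones (3.23%), a difference of 0.193 points (95% Newcombe interval -1.64 to 3.06), with 3.26% in the whole list. This interval leaves room for differences of up to 3.06 points. Within 10 kb of a start lay 39.0% of shared and 27.9% of unshared HP1γ peaks. Side by side, the shares at starts were 4.95% for shared Adnp, 3.42% for shared HP1γ, 1.00% for unshared Adnp and 3.23% for unshared HP1γ peaks. Peaks served as the units, neighbouring peaks are not independent, and the comparison with starts was added after the data were seen.

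**Figure D3:**
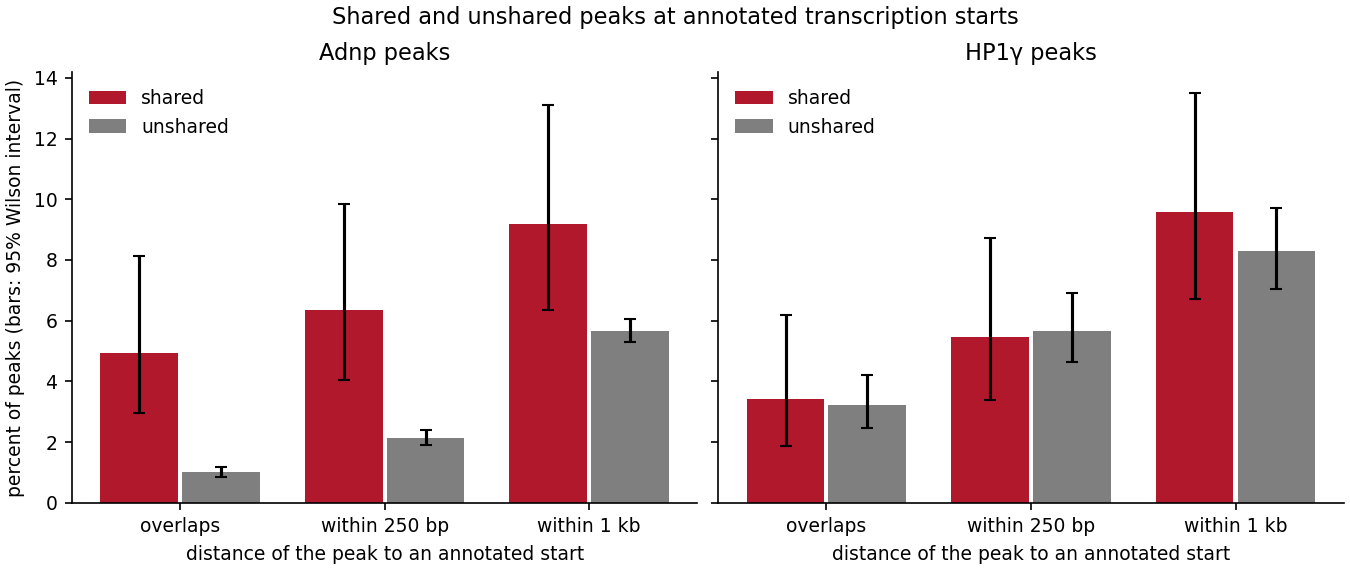
Percent of Adnp peaks (left) and HP1γ peaks (right) that overlap an annotated transcription start or lie within 250 bp or 1 kb of one, for shared (red) and unshared (grey) peaks, with 95% Wilson intervals. Shared Adnp peaks stand at 4.95% over a start against 1.00% of unshared ones, and shared HP1γ peaks at 3.42% against 3.23%.

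Over promoter windows, 16 shared regions met 16 protein-coding genes and 2 lncRNA genes. In 14 of these regions the Adnp peak covered an annotated start, in 10 the HP1γ peak did, and in 8 both covered the same start. The scores of the 14 Adnp peaks ran from 4.14 to 200.1, with a median of 23.7, against a median of 21.4 for the 269 shared Adnp peaks that covered no start.

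Of the 16, 6 have known roles in germ cells, as named above. That grouping was completed after the values were seen, and such genes were not counted among the other promoters, so no share is read from it. Mael encodes a protein of the piRNA pathway that silences transposons. In positions counted from the start along the gene, its Adnp peak ran from -91 to 159 with a score of 4.14, the lowest but 1 among shared peaks. Its HP1γ peak ran from 73 to 284, past the window. Sycp2 encodes a component of the synaptonemal complex that joins homologous chromosomes in meiosis. Its Adnp peak (score 27.4) covered 289 of the 300 bases of the window and its HP1γ peak 71.

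Bhmg1, also named Meiosin, encodes a regulator of entry into meiosis. There the Adnp peak (score 16.2) covered all 300 bases of the window and the HP1γ peak 272. Spata22 encodes a protein of meiotic recombination, and its Adnp peak (score 6.86) and HP1γ peak covered 228 and 265 bases. Tdrd12 encodes a Tudor domain protein of piRNA production. Its Adnp peak (score 40.9) covered 300 bases, while its HP1γ peak covered 8. Boll encodes an RNA-binding protein of the DAZ family. Its Adnp peak, at 55362743 to 55363906 with a score of 86.3, covered the upstream of a pair of annotated starts, and its HP1γ peak covered 172 bases of the printed window, that of the downstream start. Ddx43, a helicase gene known from testis, had a shared region 77 bp from an end, with an Adnp score of 7.97, and was picked out after its values were seen.

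The other 10 protein-coding promoters were of varied kinds. Zdhhc6, a palmitoyltransferase gene, and Vti1a, a vesicle SNARE gene, lie back to back on chromosome 19 and had 1 region with the highest score of the set, 200.1. Its HP1γ peak lay at -707 to -442 from the start of Zdhhc6, outside the promoter windows of both genes. At Mkrn3 the HP1γ peak covered the whole window and the Adnp peak, with a score of 13.02, covered 274 bases. At Atxn1l, a corepressor gene, both peaks covered all 300 bases, with a score of 28.5. Zfp560, a zinc finger gene, had an Adnp score of 12.02. Rnf216, a ubiquitin ligase gene, had a score of 45.8, and Magohb, of the exon junction complex, had 10.5. Trmt10c, of mitochondrial tRNA processing, had 6.27. Atf7ip and Dhrs13 completed the set with 27.6 and 19.9.

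**Figure D4:**
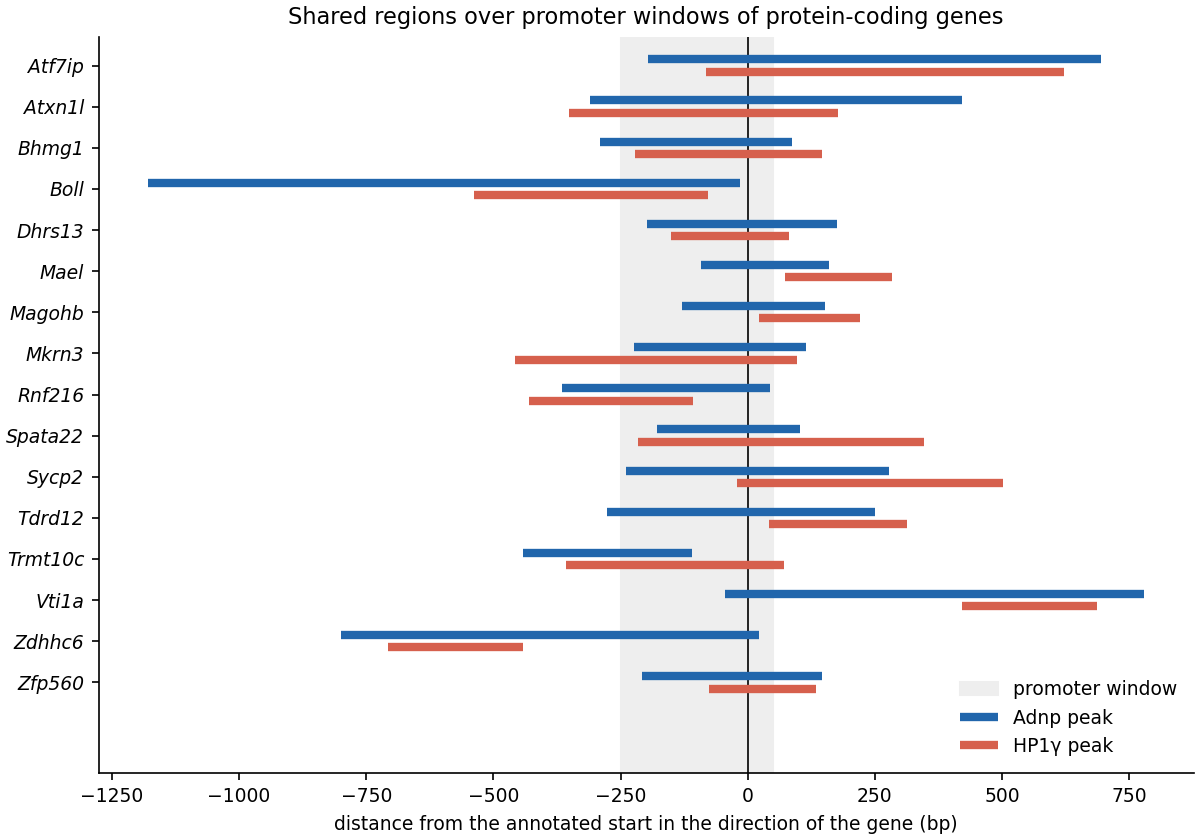
Positions of the Adnp peak (blue) and the HP1γ peak (red) of each shared region that reaches a promoter window of a protein-coding gene, in bp from the annotated start along the gene, with the window from 250 bp before to 50 bp after the start shaded. At Bhmg1 and Atxn1l both peaks lie across the start, while at Mael, Zdhhc6 and Vti1a the HP1γ peak lies outside the window.

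Promoter windows that met a shared region were rich in CpG dinucleotides. The 20 windows came from 16 shared regions, and some genes have more than 1 window. Some of these windows overlap one another, so the same bases can be counted more than once. Per window the median was 24 CpG, against 20 for 302 windows met by unshared Adnp peaks and 23 for 108 met by unshared HP1γ peaks. All 31396 windows had a median of 7. On either strand, GCGGGA was found in 10 of the 20 windows (50%), 31.1% of windows with unshared Adnp peaks, 36.1% of windows with unshared HP1γ peaks and 20.2% of all windows. CACGTG was found in 3 of the 20 windows (15%), 10.6%, 19.4% and 7.14% of these sets in the same order. The 3 windows were those of Mael, of Bhmg1 and of the upstream start of Boll, which is not printed. The word GGGCGG, which is bound by Sp1, was in 14 of 20 windows (70%), 54.3%, 62.0% and 36.0%. TATAAA, the TATA box, was in 0 of 20 (a count of 0 allows up to 15%), 13.2%, 2.78% and 13.6%. The limit of 15% is 3 divided by 20 and not a Wilson bound. GCGGGA and GGGCGG can share letters where they overlap. A match can lie outside the peaks and is no evidence of binding, and no test was made on 20 windows.

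Among gene lists, the germ cell list had the largest share with a shared region. A shared region lay inside or within 5 kb of 2 of 18 germ cell genes (11.1%), Sycp2 and Mael (95% Wilson interval 3.10% to 32.8%), against 180 of 20560 protein-coding genes (0.875%). Peaks of both lists, overlapping or not, lay within that distance of 4 of the 18 (22.2%), with Tdrd9 and Hormad1 added, against 490 of all protein-coding genes (2.38%). Dazl, Stag3 and Piwil2 had an HP1γ peak alone and Tuba3a an Adnp peak alone. An HP1γ peak, shared or not, lay at 7 of the 18 (38.9%), against 4.06% of all protein-coding genes. For an Adnp peak it was 5 of the 18 (27.8%), against 30.4%. The high share of this list was thus already present for HP1γ peaks and not for Adnp peaks. The list was chosen with earlier results known, and 18 genes are few. Zinc finger genes followed with 8 of 415 (1.93%, 0.980% to 3.76%). Among them were Zfp709, Zscan5b, Zfp445 and Zfp944 with Adnp scores of 27.9, 17.2, 16.5 and 13.8. Here too an HP1γ peak, shared or not, was more frequent than at all protein-coding genes, at 33 of 415 (7.95%) against 4.06%. For an Adnp peak the share was 31.6%, against 30.4%.

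The remaining lists had no gene with a shared region. Given the title of the HP1γ list, these counts do not show that HP1γ is absent from their Adnp peaks. Over all protein-coding genes, 30.4% had an Adnp peak and 4.06% an HP1γ peak inside or within 5 kb. Pluripotency genes had 0 of 23 with a shared region, while 17 of them (73.9%), such as Nanog, Pou5f1 and Klf2, had an Adnp peak. Esrrb alone among them had peaks of both lists, apart from each other. The 30 imprinted genes of the list, which does not hold Mkrn3, had 0 with a shared region, while 16 (53.3%) had an HP1γ peak and 3 (10%) an Adnp peak. Airn and Sgce had both without overlap, and Mkrn3 has a shared region over its start as described above. The counts were also 0 of 17 for ChAHP, HP1 and heterochromatin genes, 0 of 18 for endoderm, 0 of 16 for mesoderm, 0 of 15 for neural, 0 of 76 for ribosomal protein and 0 of 1103 for olfactory receptor genes. The upper bounds of the Wilson intervals ran from 4.81% to 20.4% for these lists other than the olfactory receptors, where it was 0.347%, so all but that one leave room for the share of all protein-coding genes.

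Other protein-coding genes with a shared region at an end included Gpcpd1, a phosphodiesterase gene on chromosome 2, with a score of 162 and the region over its end. Dnah8, an axonemal dynein gene on chromosome 17, had a region 822 bp from an end with a score of 81.3 and a second deep inside with 176. Chd2, a chromatin remodeller gene, had one 304 bp from its end with a score of 74.0. Incenp, of the chromosomal passenger complex, Cyth3, Fkbp5 and Crtap had scores of 41.0, 38.3, 37.6 and 36.1.

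Inside protein-coding genes and more than 1 kb from their ends, the highest scores were 182 at Slc7a1, a cationic amino acid transporter gene, 176 at Dnah8, 142 at Ltbp4 and 141 at Stat5b, a transcription factor of cytokine signalling. Sh3rf1, Col23a1 and Igf2bp1 followed with 122, 111 and 104. Genes with a pair of shared regions inside or within 5 kb were Dnah8, Ppm1b, Ppp1r9a, Trim24 and the lncRNA genes Gm10069, Gm31829 and Gm44140, while Gm39283 had 3.

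Some regions lay far from protein-coding genes. Of the 290, 100 (34.5%) lay more than 10 kb and 5 (1.72%) more than 100 kb from a protein-coding gene. The farthest lay on chromosome 16 at 9150843, 291919 bp from the nearest protein-coding gene, 1810013L24Rik, with Grin2a, a glutamate receptor gene, on its other side at 416338 bp. Others lay 148700 bp from 1700015G11Rik on chromosome 7, 114387 bp from Ttc29 on chromosome 8 and 112733 bp from Akr1d1 on chromosome 6. The last of these lay 349 bp from a pseudogene, Ybx1-ps2. At their far end, unshared peaks reached farther out. At the median, shared Adnp peaks lay farther from a protein-coding gene than unshared ones, 2468 bp against 55 bp. The tenth part farthest from a protein-coding gene began at 32064 bp in shared and at 37743 bp in unshared Adnp peaks. For HP1γ peaks it began at 30988 bp in shared and at 184028 bp in unshared ones.

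By type of neighbour, 135 regions lay within 1 kb of or inside a protein-coding gene, 36 of a lncRNA gene and 9 of a pseudogene. For protein-coding genes this was 46.1% of shared and 53.9% of unshared Adnp peaks, and 46.2% of shared and 40.7% of unshared HP1γ peaks. For lncRNA genes it was 11.9% of shared and 11.6% of unshared Adnp peaks, and 11.6% of shared and 11.8% of unshared HP1γ peaks. For pseudogenes it was 3.07% and 1.68% for Adnp, and 2.97% and 2.25% for HP1γ. No shared region lay within 1 kb of a tRNA gene, but 0.198% of unshared Adnp peaks did, and with 293 shared peaks a difference from so small a share was not detectable. Of small RNA genes, 2 snRNA genes, Gm24440 and Gm27343, had a shared region within 1 kb, at 50 and 665 bp. For snRNA genes this was 0.683% of shared and 0.178% of unshared Adnp peaks. For HP1γ peaks it was 0.660% of shared and 0.473% of unshared ones, and 2 regions are too few to compare.

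The shared part of each list varied from chromosome to chromosome, which was not tested. For Adnp peaks the share ran from 0.765% on chromosome 2 (8 of 1046) to 3.49% on chromosome 6 (26 of 745, 95% Wilson interval 2.39% to 5.06%), followed by 3.34% on chromosome 8 (35 of 1049). For HP1γ peaks it ran from 7.87% on chromosome 13 (7 of 89, 3.86% to 15.4%) to 31.6% on chromosome 19 (12 of 38) and was 25.2% on chromosome 7 (26 of 103, 17.8% to 34.4%). Chromosome 8 held the most shared regions, 34, and chromosome 13 the fewest, 7.

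**Figure D5:**
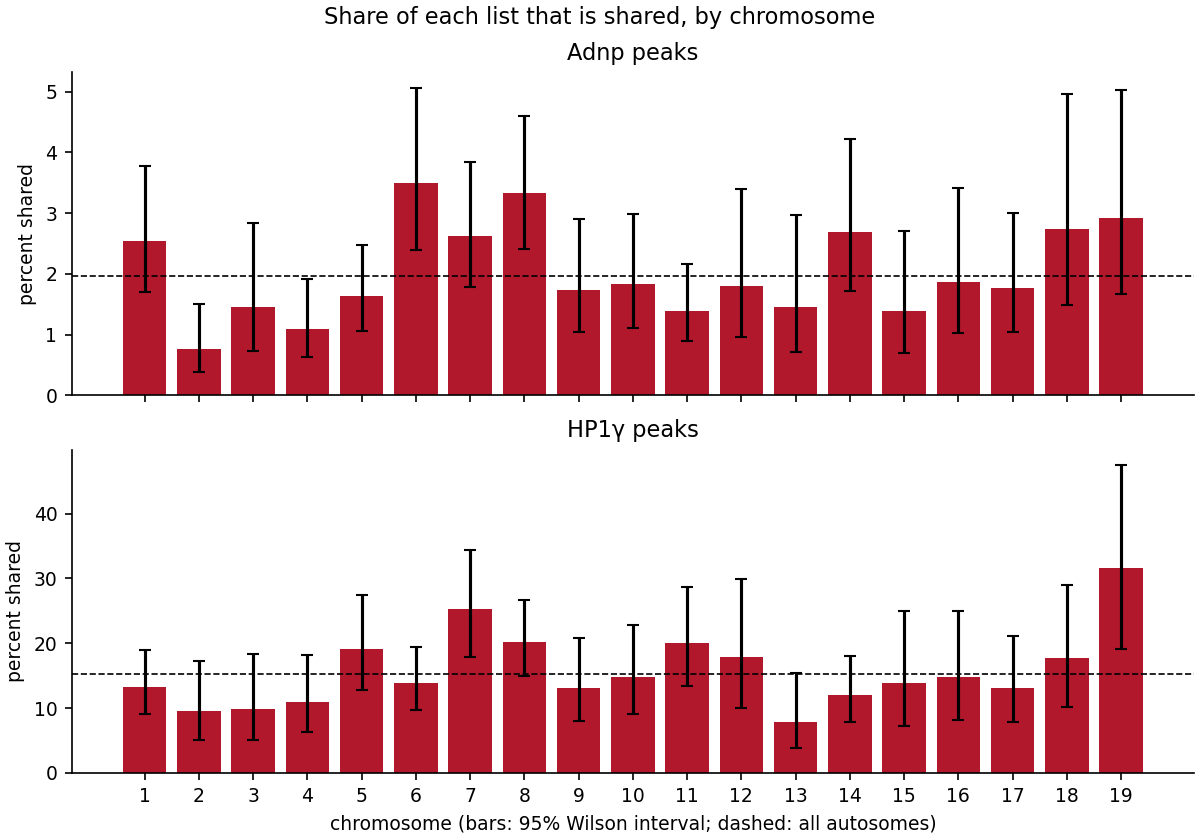
Percent of Adnp peaks (top) and of HP1γ peaks (bottom) that are shared, by chromosome, with 95% Wilson intervals and the share over chromosomes 1 to 19 as a dashed line. Chromosomes 6 and 8 are highest for Adnp, at 3.49% and 3.34%, and chromosomes 19 and 7 for HP1γ, at 31.6% and 25.2%.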

How the data were processed

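The values used are 2 peak lists without header lines, made by the authors and pooled over replicates. The submitters' processing notes name MACS2 and Bowtie 1.0.0 among the tools and mm10 (GRCm38) as the build, without roles. The settings and filters of peak calling are not given in the sources used. Starts were read as BED positions. The deposited score of the Adnp list was used to describe and rank peaks within that list, and the score column of the HP1γ list, 0 throughout, was not used.

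Genes came from a RefSeq table of GRCm38.p6 (49997 genes, 46714 of them used on chromosomes 1 to 19, from 3 Mb onward), which holds no strand. Transcription starts and promoter sequences came from a RefSeq table of the same build, with 31396 windows of 300 bases on the chromosomes used.

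Shares have 95% Wilson intervals, and differences between shared and unshared peaks have 95% Newcombe intervals, given for 10 differences without adjustment. A difference was called when its interval excluded 0. No placement, resampling or set test was made. The overlap, context and interval steps were tested on simulated data. Named genes are those with the highest Adnp score at ends and inside genes, with several regions, in a gene list, or nearest to the most distant regions, and, added after the data were seen, genes at promoters; 1 gene under this rule is not reported here. The members and gene lists were chosen with earlier results of these data known. Work was done with SciPy 1.17.1 and NumPy 2.4.6 in Python 3.11.15, pandas 2.3.3 for tables, and figures with matplotlib 3.10.9.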

Additional observations from a re-analysis of the deposited data

How the results depend on the processing

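The overlap of 1 bp gave 293 Adnp and 303 HP1γ peaks. An overlap of 50% of the shorter peak, centres within 200 bp, edges within 1 kb and chromosome X gave between 246 and 362 Adnp and between 246 and 387 HP1γ peaks. With Adnp peaks at or above the median score alone, 146 Adnp and 151 HP1γ peaks were shared, since that setting leaves fewer peaks. An overlap of 50% moved the median centre distance to 85.5 bp by its own construction. The Adnp difference at gene ends passed with ends of 500 bp (3.58 points), protein-coding genes alone (3.41) and peaks joined within 10 kb (10.6). Its difference between genes did not pass with ends of 500 bp (5.56) or joined peaks (2.42). The HP1γ difference at gene ends passed with ends of 5 kb (8.96). Its difference between genes did not pass with ends of 500 bp (-5.03), protein-coding genes alone (-5.46), peak centres (-5.49), 50% overlap (-6.28) or chromosome X (-5.96), and its difference in crowding passed with 50% overlap (-6.17). By construction a joined unit can span several peaks. The cause of the other changes was not tested. The Adnp difference at starts passed under all 7 alternatives tried, all added after seeing the data (3.18 to 4.23 points), and that of HP1γ under none of the same 7 (-0.191 to 1.30). No result changed from one called direction to the other. No paired analysis was possible because each list is pooled over replicates and carries no replicate values, and for the same reason no replicate could be left out. Precision is limited by the number of shared peaks, and depth is unknown.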

Other observations

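Outside chromosomes 1 to 19, no Adnp peak overlapped an HP1γ peak on chromosome X, where the lists hold 106 Adnp and 6 HP1γ peaks. On chromosome Y, 3 of 5 Adnp peaks overlapped an HP1γ peak, and 4 of 16 HP1γ peaks an Adnp peak. On unplaced or unlocalised scaffolds, 5 of 5 Adnp peaks on GL456216 and 4 of 5 on GL456370 overlapped an HP1γ peak. No peak was shared on JH584304, with 1 Adnp and 3 HP1γ peaks, or on GL456368, with 1 Adnp and 0 HP1γ peaks. These scaffolds are short, and their values were used in no comparison.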
